A study of Mus musculus with 6 samples.

Results

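Round spermatids are the haploid germ cells that follow the second meiotic division of the male, before the nucleus condenses and the cell elongates. They build the acrosome, the vesicle that carries the enzymes and receptors used at fertilization, and they store messenger RNA for the later stages when transcription stops. The X and Y chromosomes are silenced during meiotic prophase, and spermatids transcribe a number of sex-linked genes again.

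The cells described here are the round spermatids that gave the deepest profiles in a single-cell RNA-seq experiment on adult mouse testis. Members were chosen by measured values. A cell barcode was kept when mitochondrially encoded (mt-) genes took at most 20% of its unique molecular identifiers (UMIs, each marking a captured RNA molecule), when it held at least 15000 UMIs, and when 3 conditions on marker genes held. S, the UMI sum of the spermatid genes Acrv1, Spaca1, Lyzl4, Izumo1, Catsper3 and Spaca7, had to be at least 20 and at least as large as M, the UMI sum of the late spermatocyte genes Ccna1, Pou5f2, Piwil1, Tbpl1 and Aurka. P, the percentage of UMIs from the nuclear condensation genes Prm1, Prm2, Tnp1 and Tnp2, had to be under 3. These limits kept 966 barcodes, which is 1.87% of the 51794 barcodes that passed the mitochondrial limit and 19.8% of the 4878 that also held 15000 UMIs, out of 54253 deposited.

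The libraries came from testes of male ICR mice, an outbred stock. The smoking group spent 30 minutes per day for 12 weeks in a chamber with the smoke of 15 cigarettes (nicotine 1.1 mg, tar 11 mg per cigarette), and the control group was placed in a chamber without smoke. Mice were bought at 6 weeks of age and adapted for 1 week, which does not match their age label of 8 weeks. There were 3 smoking and 3 control libraries, the labels name 7 mice per group without tying any library to a mouse, and p-values therefore measure only the spread between libraries. The study asked how exposure to cigarette smoke affects the testis.

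The members held 8988253, 7684341 and 13922918 UMIs in smoking libraries 1 to 3 and 4143871, 3578062 and 8402800 in control libraries 1 to 3. A member had a median of 32954 UMIs, against 2698 over all barcodes that passed the mitochondrial limit, and the deepest held 426582. Of the 365 barcode sequences that occurred in more than 1 library, 23 belonged to a member in one library and to another cell elsewhere, and none was shared between members. A doublet score was high in 70 of the 966 members. The number called high was fixed for each library at 0.8% of its barcodes per 1000 barcodes, which gave 3935 of the 54253 deposited.

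The label was checked with genes that the selection did not use. The 35 acrosome genes measured, none of them among the selection genes, summed to between 15620 and 15676 CPM (the UMIs of a gene scaled to an equal total in every library) in smoking libraries and between 15430 and 15634 CPM in control libraries. The same sum lay between 7320 and 8569 CPM in late spermatocyte barcodes (the same limits on depth and mt- genes, with M of at least 20 and above S, 396 barcodes) and between 10434 and 12208 CPM in spermatids with P of at least 3 (otherwise as the members, 383 barcodes). The spermatid kinase genes Tssk1 and Tssk2 were seen in 965 and 966 of the 966 members after every member had been thinned to 15000 UMIs, and in 54.9% and 80.5% of macrophage barcodes, which should lack them and held a median of 4873 UMIs. Acr, the acrosomal protease acrosin, was seen in 98.1% of members, and Sun5, a nuclear envelope protein of spermatids, in 97.2%. In macrophage barcodes Acr was seen in 25.4% and Sun5 in 15.0%. Acrosome genes were therefore highest in the members among these 3 classes. The 15 spermatid kinase genes summed to 3777 to 3903 CPM in members, 1465 to 1597 CPM in late spermatocyte barcodes and 4696 to 4982 CPM in spermatids with P of at least 3. Genes of at least 50 CPM in members or those spermatids were also higher in members, by a median log2 difference of 0.69. The label is thus borne out against late spermatocyte barcodes, while the division from those spermatids rests on P.

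Markers of other germ cell stages were present and those of somatic cells were few. The 12 late spermatocyte markers, of which 5 are the M genes, summed to between 8836 and 8894 CPM in smoking members and between 8483 and 8840.0 CPM in control members, against 11390 to 12225 CPM and 11678 to 12591 CPM in late spermatocyte barcodes of smoking and control libraries. Most of the sum in members came from Ldhc, at 5941 ± 49.6 CPM in smoking and 5825 ± 109 CPM in control members. Of spermatogonial genes, Stra8 was seen in 1 of 966 members at 15000 UMIs, Dmrt1 in 8 and Kit in 76. Of early spermatocyte genes, Prdm9 was seen in 12 and Sycp3 in 315, the latter 32.6% of members beside 22.2% of macrophage barcodes. The 11 early spermatocyte markers summed to 516 to 562 CPM in members and 2528 to 3629 CPM in late spermatocyte barcodes. The Sertoli cell gene Sox9 was seen in 10 members, the Leydig cell gene Insl3 in 19 and the macrophage receptor Csf1r in 3. The summed level of 15 Sertoli markers ranged from 26.6 to 143 CPM in smoking libraries and from 60.6 to 119 CPM in control libraries. Of 5 red blood cell markers, Hba-a1, Hba-a2, Hbb-bs and Hbb-bt were at 0. The 13 spermatogonial markers summed to between 25.7 and 26.6 CPM in smoking libraries, below the 31.7 to 47.8 CPM of control libraries. The 14 condensing spermatid markers, which include the P genes, summed to between 18982 and 19540 CPM in smoking libraries and to between 19726 and 20598 CPM in control libraries, again without overlap. The part of these markers in the results between groups was not tested.

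The selection genes are given as a description, since they chose the members. Spaca1, an acrosomal membrane protein, averaged 906 ± 5.72 CPM in smoking libraries and 900.4 ± 47.3 CPM in control libraries (SD, n = 3 each). Izumo1, the sperm protein that binds the egg receptor Juno, averaged 191 ± 1.45 CPM and Catsper3, a subunit of the sperm calcium channel, 247 ± 3.43 CPM in smoking libraries. In control libraries Izumo1 averaged 193 ± 12.5 CPM and Catsper3 233 ± 25.7 CPM. Of the late spermatocyte genes, Tbpl1, which encodes the TBP-like factor needed by spermatids, was still at 481 ± 9.60 CPM in smoking and 451 ± 24.6 CPM in control members. Piwil1, the piRNA-binding protein of pachytene spermatocytes, was at 11.3 ± 0.883 and 12.4 ± 1.43 CPM in smoking and control members, where late spermatocyte barcodes held 753 CPM.

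The limits cut through continuous distributions. Just inside the S limit were 6 members with S of 20 to 29 (median S 21.5, median M 11.5), and just outside it 6 barcodes with S of 10 to 19 (median S 12.5, median M 7). Near the P limit, 25 members had P of 2.5 to 3 (median S 87) and 8 barcodes had P of 3 to 3.5 (median S 100.5). At the UMI limit, 31 members lay just inside (median 16078 UMIs, median S 48), and 51 barcodes that met the other conditions lay just outside (median 14225 UMIs, median S 47).

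The 15 most abundant genes took 5.38% to 5.51% of member UMIs in smoking libraries and 5.38% to 5.47% in control libraries. The highest was Meig1, which is required for the manchette, the microtubule sleeve that shapes the spermatid head, with 6424, 6471 and 6613 CPM in smoking libraries 1 to 3 and 6285, 6296 and 6144 CPM in control libraries 1 to 3. Meig1 was higher in every smoking library than in every control library, by 0.07 on the log2 scale (SE 0.02), and did not pass the test (edgeR adjusted p = 0.657). Ldhc, the lactate dehydrogenase of germ cells, averaged 5941 ± 49.6 CPM in smoking libraries and 5825 ± 109 CPM in control libraries. Fabp9, a testis fatty acid-binding protein, Ropn1l, a ropporin of the fibrous sheath, and Gstm5, a glutathione transferase, each averaged over 4000 CPM in both groups. Gpx4, the selenoperoxidase that later hardens the sperm midpiece, averaged 3029 ± 43.9 CPM in smoking and 2982 ± 109 CPM in control members. CPM of 3′ tag counts are not per length and rank captured molecules.

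Prm1 and Prm2 were also among these 15, but droplets that should lack them held their UMIs too. As means over barcodes, Prm1 had 181 UMIs per member and 339 per macrophage barcode, Prm2 140.2 and 238, Tnp1 118 and 131, and Tnp2 87.6 and 172. As medians over barcodes, the 4 genes together gave 435 ± 78.0 UMIs per smoking member and 398 ± 15.5 per control member, against 196 ± 48.3 and 197 ± 9.50 per macrophage barcode of smoking and control libraries (SD, n = 3 libraries each). Members were thus below macrophage barcodes by means and above them by medians, at a median depth of 32954 against 4873 UMIs, so no expression of the 4 genes is read from these levels. Smcp, a cysteine-rich protein of sperm mitochondria, had 127 UMIs per member and 23.2 per macrophage barcode, and S had a median of 1 to 2 UMIs in macrophage barcodes.

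**Figure D1:**
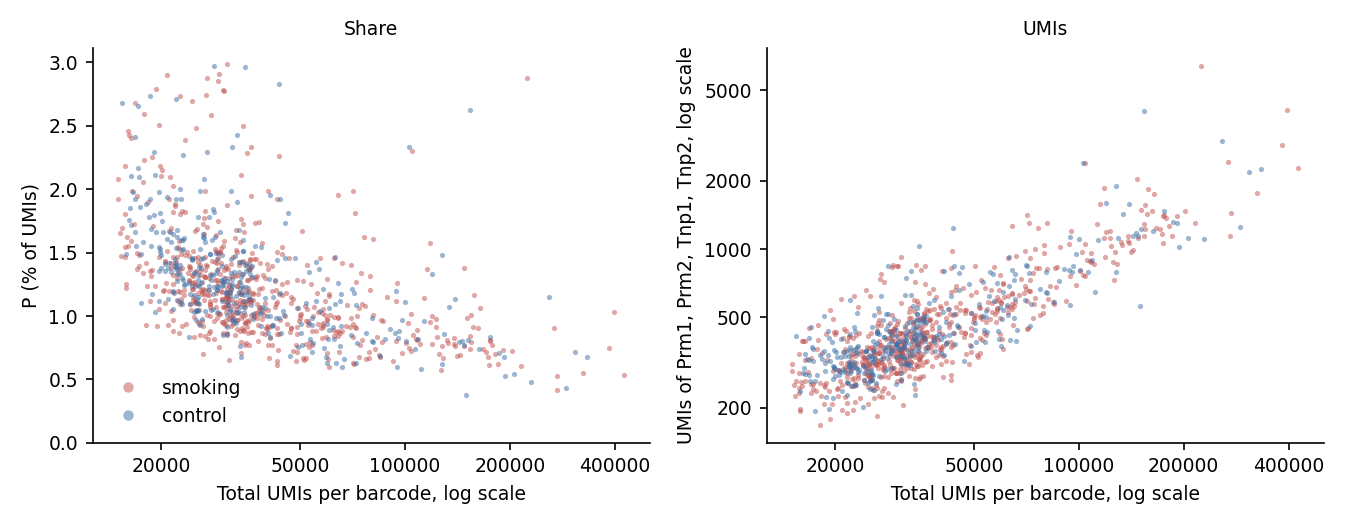
UMIs of Prm1, Prm2, Tnp1 and Tnp2 in each of the 966 members, as a percentage of its UMIs (left, linear scale) and as a number (right, log scale), against its total UMIs (log scale), with smoking members in red and control members in blue. The median share was 1.69% in members under 20000 UMIs and 0.794% in those of at least 100000, while the median number was 290 and 1181.5 UMIs.

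The members spanned a wide range of depth, and most measures changed little with it. From the 84 members under 20000 UMIs to the 92 members of at least 100000, median S stayed between 27.8 and 29.3 per 10000 UMIs in every range, and the genes detected after thinning to 15000 UMIs fell from a median of 4036.5 to 3925. P fell far more strongly, as its plot against total UMIs shows. The share of members with a high doublet score was 11.9% in the lowest range and 7.61% in the highest.

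Sex-linked transcripts separated the stages. X-linked genes gave 0.136% of UMIs in late spermatocyte barcodes, 1.30% in the members and 1.71% in spermatids with P of at least 3 (means over 6 libraries). Y-linked genes gave 0.00759% in late spermatocyte barcodes, 0.0717% in the members and 0.0281% in spermatids with P of at least 3. These Y shares count Gm47283, placed on Y by its annotated position. It had 38.4 CPM in late spermatocyte barcodes, 115 CPM in the members and 69.6 CPM in spermatids with P of at least 3. Its part of the Y share was thus largest in late spermatocyte barcodes, and the Y ratios below include it. The members thus held 9.92 times the X share of late spermatocyte barcodes (7.93 to 13.2 times over the 6 libraries) and 10.1 times the Y share (7.11 to 14.3 times), whereas each autosome lay between 0.882 and 1.25 times on average. Against spermatids with P of at least 3, the members held 0.761 times the X share and 2.56 times the Y share. Each autosome lay between 1.09 and 1.49 times on average in that comparison. The P genes were counted in the total but in no chromosome's share. Macrophage barcodes, which had no such silencing, gave 2.18% to 2.95% of UMIs from X-linked genes and 0.0172% to 0.0274% from Y-linked genes. Since S, M and P chose these classes, the differences between them are a description with no test.

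**Figure D2:**
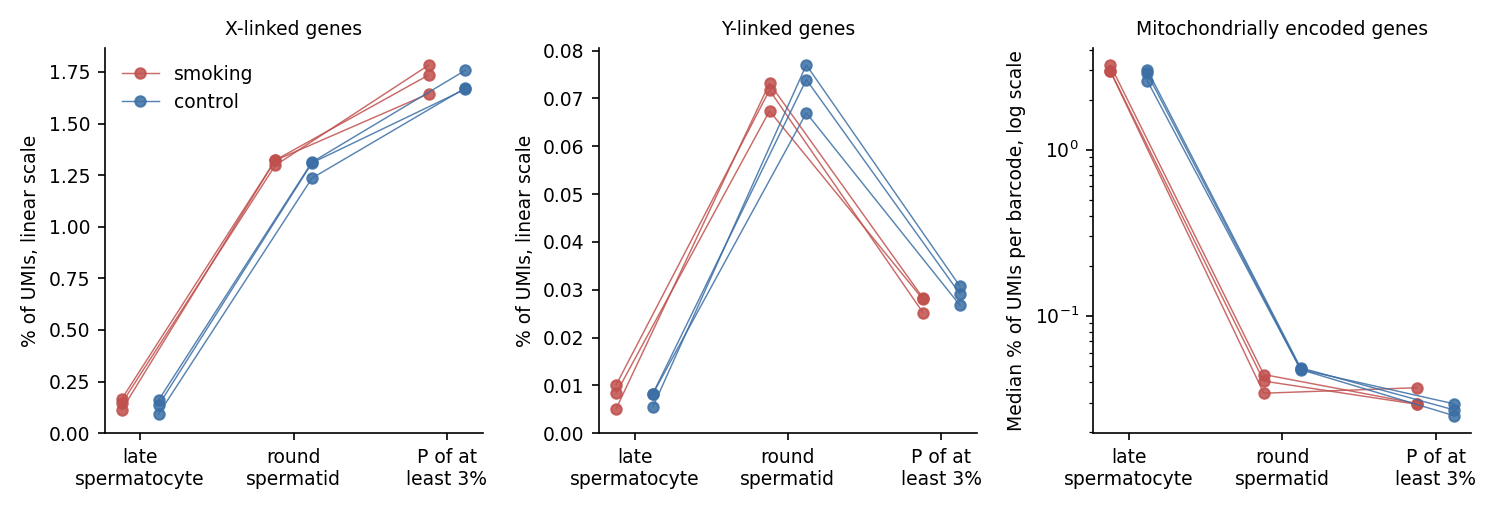
Share of UMIs from X-linked genes (left), from Y-linked genes (middle) and the median percentage of mitochondrially encoded UMIs per barcode (right, log scale) in late spermatocyte barcodes, the high-UMI round spermatids and spermatids with P of at least 3%, with a line per library, smoking in red and control in blue. In all 6 libraries the members lay above late spermatocyte barcodes in X and Y share and below them in mitochondrial percentage.

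Single genes were compared where they reached a minimum level. Of 4604 genes with at least 50 CPM in either class and outside the selection, 29.6% were over 2-fold higher in members than in late spermatocyte barcodes with the same direction in all 6 libraries, and 35.0% were over 2-fold lower. Of the 57 X-linked genes among them, 56 were over 2-fold higher and 1 lower, with a median log2 difference of 3.70 beside -0.30 over all 4604. Most of the 57 passed the minimum only through the members, so it largely sets this count and median, and nothing is read from them. At least 10 CPM was reached by 169 X-linked genes in members, by 22 in late spermatocyte barcodes and by 151 in spermatids with P of at least 3. For Y-linked genes these numbers were 14, 1 (Gm47283) and 7, and over all genes 6644, 7464 and 5549.

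Tsga8, a testis gene and the highest X-linked one, had 1075, 1009 and 1053 CPM in smoking libraries 1 to 3 and 970.3, 1023 and 1005 CPM in control libraries 1 to 3. It averaged 1023 CPM over these, against 74.9 CPM in late spermatocyte barcodes and 470 CPM in spermatids with P of at least 3. Slxl1, of the Slx family, was likewise lower in those spermatids, with 499.9 CPM in members and 205 CPM in spermatids with P of at least 3. Cypt1, a cysteine-rich protein of the perinuclear theca, had 489 CPM in members and 1071 CPM in spermatids with P of at least 3, and Gm5941 (533 and 726 CPM) and BC061195 (487 and 938 CPM) were likewise higher in those spermatids. X-linked genes therefore differed in when they were highest.

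Of the Y-linked genes, Eif2s3y, a translation initiation factor subunit, averaged 90.2 ± 4.59 CPM in smoking and 85.6 ± 3.35 CPM in control members, against 6.18 CPM in late spermatocyte barcodes. Gm20854 averaged 68.1 ± 0.554 CPM in smoking and 70.8 ± 7.01 CPM in control members, against 3.22 CPM in late spermatocyte barcodes. Gm47283, placed on the Y chromosome by its annotated position alone (90784738 to 90816464), was higher than these 2 but uneven. Smoking libraries 1 to 3 had 103, 117 and 114 CPM, and control libraries 1 to 3 had 121, 57.9 and 175 CPM. Its control libraries lay on both sides of the smoking ones. Whether its reads came from the Y chromosome alone was not tested. A UMI of Ssty1 was seen in 0 of 966 members at 15000 UMIs, which allows a share of members with a UMI of up to 0.311%, and one of Ssty2 in 6. Y-linked multicopy genes share reads with near-identical copies, and their counts are uncertain to that extent.

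Smoking and control members did not differ detectably in these shares. X-linked genes gave 1.32%, 1.30% and 1.32% of member UMIs in smoking libraries 1 to 3 and 1.31%, 1.31% and 1.24% in control libraries 1 to 3, with control library 3 lowest. The means were 1.31% ± 0.0142 in smoking and 1.29% ± 0.0438 in control members (exact two-sided permutation p = 0.5, where 3 against 3 libraries cannot give less than 0.1). Y-linked genes gave 0.0707% ± 0.00301 in smoking and 0.0726% ± 0.00514 in control members (exact permutation p = 0.6), with overlapping groups. Control libraries 1 to 3 gave 0.0739%, 0.0670% and 0.0770%, and Gm47283, uneven in the same order, is counted in these shares. Its part in their spread was not tested. A member showed a median of 3982.5 ± 9.12 genes at 15000 UMIs in smoking and 3986 ± 4.19 in control libraries (exact permutation p = 0.7).

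Within the members, X-linked UMIs varied from cell to cell more than counting alone gives. At 15000 UMIs a member held a median of 196 to 207 X-linked UMIs in smoking libraries and 186 to 199 in control libraries. The variance over cells was 7.38 to 12.0 times the mean in smoking libraries and 6.51 to 11.6 times in control libraries, where counting alone gives a ratio near 1. For Y-linked UMIs, of which a member held a median of 10 or 11, the ratio was 1.03 to 1.40 in smoking and 1.17 to 1.40 in control libraries. The 4 highest members, with 367, 468 and 642 X-linked UMIs in smoking library 3 and 396 in control library 1, fell in the libraries with the highest ratio of each group.

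Other measures varied with X-linked UMIs among the members, in bins drawn after the values were seen. M, S and the mitochondrial percentage entered the selection, and their values are a description. The 44 members under 120 X-linked UMIs had a median M of 12.0 and S of 18.9 per 10000 UMIs, whereas the 117 members at 240 or more had M of 3.67 and S of 30.4. Mitochondrially encoded genes fell alongside, from a median of 0.540% of UMIs under 120, through 0.141%, 0.0442% and 0.0294%, to 0.0277% at 240 or more. Genes detected at 15000 UMIs went from a median of 4080 in the lowest bin to 3910 in the highest, while Y-linked UMIs went from 11 to 9. Within libraries, Spearman's rho across members between X-linked UMIs and the mitochondrial percentage was -0.54 to -0.49 in smoking libraries (122 to 316 members each) and -0.47 to -0.38 in control libraries (70 to 193 members each). These points share a library and the thinning, and shares of a fixed total are not independent. A high doublet score was found for 16 of the 44 lowest members, beside 70 of all 966.

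**Figure D3:**
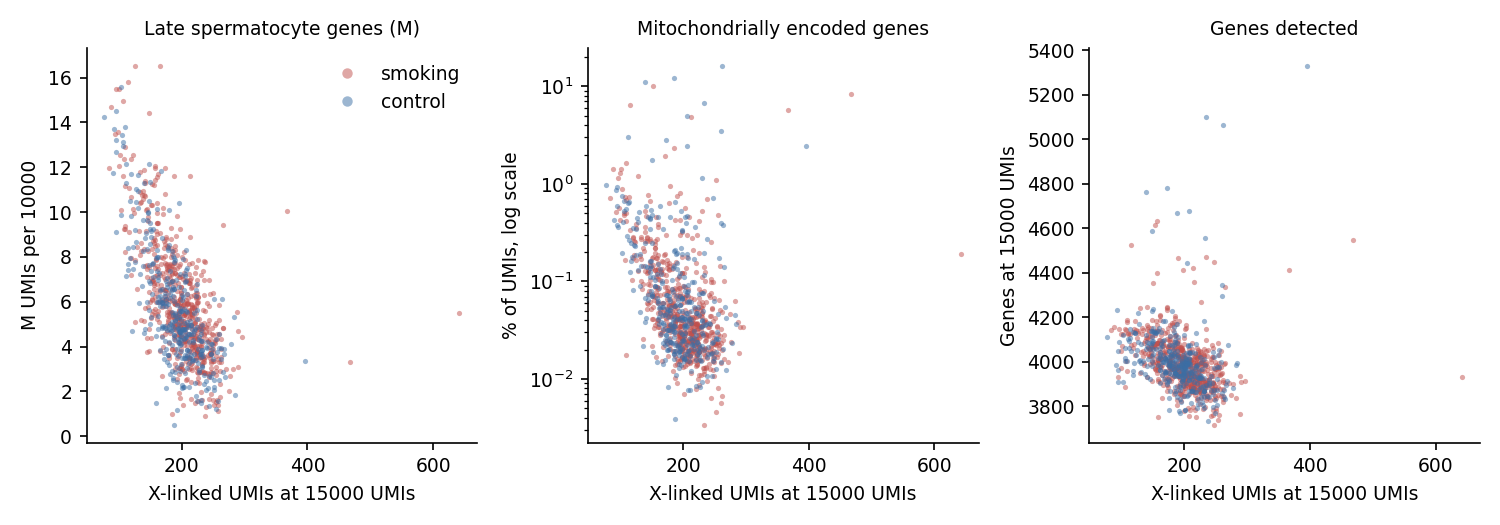
Each of the 966 members by its X-linked UMIs after thinning to 15000 UMIs, against late spermatocyte gene UMIs per 10000 (left), the percentage of mitochondrially encoded UMIs (middle, log scale) and genes detected at 15000 UMIs (right), with smoking members in red and control members in blue. All 3 measures were lower in members with more X-linked UMIs, and 4 members lay apart at 367 to 642 X-linked UMIs.

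The mitochondrial percentage dropped with the stage. Its median over barcodes was 2.60% to 3.22% in late spermatocyte barcodes of the 6 libraries, 0.0341% to 0.0485% in the members and 0.0250% to 0.0368% in spermatids with P of at least 3, beside 0.354% over all barcodes that passed. mt-Co1, a subunit of cytochrome oxidase, had 3583 CPM in late spermatocyte barcodes and 368 CPM in the summed members, where 26 members with over 1% of mt- UMIs weigh on the sum. The median member had 0.0341%, 0.0442% and 0.0404% in smoking libraries 1 to 3 and 0.0485%, 0.0475% and 0.0474% in control libraries 1 to 3. All 3 smoking libraries were lower, and since mt- genes entered the selection this is a description. The share of members under 120 X-linked UMIs was 3.91%, 7.38% and 1.90% in smoking libraries 1 to 3 and 6.98%, 1.43% and 7.77% in control libraries 1 to 3, so these groups overlapped. Its part in the mitochondrial difference was not tested. All 12 mt- genes tested had a negative log2 fold (median -0.61), 6 had an unadjusted p under 0.05 beside 7.1% of all genes, edgeR, DESeq2 and limma-voom called 0, and each overlapped between groups.

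Genes that set the members apart from the 2 neighbouring classes were partly uncharacterized. The highest against late spermatocyte barcodes were 1700001P01Rik (870.0 CPM in members, 16.3 CPM in late spermatocyte barcodes), 4930596D02Rik (234 and 3.84 CPM), 1700121L03Rik (155 and 2.43 CPM), Dscc1, which in dividing cells loads the replication clamp (168 and 2.70 CPM), Gm40292, 1700027F09Rik, Dapl1 and Pfn3. Pfn3, a testis profilin, had 664 CPM in members and 15.9 CPM in late spermatocyte barcodes, a log2 difference of 5.32 ± 0.244 (SD over 6 libraries). Dapl1, a small death-associated protein-like gene, had 102 CPM in members and 1.55 CPM in late spermatocyte barcodes, a log2 difference of 5.34 ± 0.413. All 8 differences lay between 5.32 and 5.72.

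The promoters of these 8 genes were read because their rise after meiosis is the largest seen here, and spermatids use CREM, a factor that binds cAMP-response elements. RefSeq (GRCm38.p6) holds a promoter window, 250 bases before to 50 bases after the start, for 5 of them. The full element TGACGTCA occurred in 0 of the 5, beside 1.79% of all 32851 promoters. Its core TGACGT, searched on both strands and counting those within the full element, occurred in 2 of the 5, beside 7.51% of all. A match is a description of letters and shows no binding. The windows with the core, in capitals on either strand, are those of Pfn3 (chr13:55415183-55415482, minus strand) and Dapl1 (chr2:59484403-59484702, plus strand).
Pfn3: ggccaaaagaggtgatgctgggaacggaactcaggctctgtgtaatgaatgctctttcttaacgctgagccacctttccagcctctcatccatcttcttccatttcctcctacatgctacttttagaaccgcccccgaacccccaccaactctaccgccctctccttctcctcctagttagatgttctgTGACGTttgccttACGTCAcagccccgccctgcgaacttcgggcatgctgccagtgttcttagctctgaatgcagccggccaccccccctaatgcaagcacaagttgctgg
Dapl1: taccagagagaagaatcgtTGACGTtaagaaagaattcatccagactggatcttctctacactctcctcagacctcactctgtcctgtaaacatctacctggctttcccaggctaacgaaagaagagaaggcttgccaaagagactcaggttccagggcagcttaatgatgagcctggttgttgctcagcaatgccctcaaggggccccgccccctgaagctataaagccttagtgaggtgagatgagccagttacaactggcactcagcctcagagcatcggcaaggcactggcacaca
Pfn3 holds the core as TGACGT and, further on, as its reverse complement ACGTCA, and the first match starts 61 bases before the start of transcription. The match of Dapl1 starts 231 bases before it.

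The lowest genes against late spermatocyte barcodes included Tex101, a surface protein of germ cells (8.67 CPM in members, 629 CPM in late spermatocyte barcodes), Mllt10, a chromatin reader (17.0 and 879 CPM), Anp32b, a nuclear phosphoprotein (4.31 and 311 CPM), and Alyref, a messenger RNA export factor (1.76 and 139 CPM). Gm21269, Elfn2, Gm4763 and Chd3os completed the 8 lowest, and their log2 differences, with those named, lay between -6.09 and -5.61.

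Against spermatids with P of at least 3, 38.3% of 3597 genes were over 2-fold higher in members and 15.0% over 2-fold lower. The highest were Tssk5, a testis kinase (77.0 CPM in members, 4.37 CPM in those spermatids), 1700041C23Rik (435 and 30.4 CPM), Smco4, Dopey2, Spam1, Arg2, Gm20268 and Zdhhc11. Spam1, the sperm hyaluronidase PH-20, had 197 CPM in members and 15.9 CPM in those spermatids. The lowest were Klc3, a kinesin light chain of the spermatid tail (3.63 CPM in members and 132 CPM in those spermatids), Cstl1 (12.0 and 356 CPM), 1700016C15Rik (20.7 and 528 CPM), Col20a1, 1700025G04Rik, Sh3bp5, 1700125H03Rik and Tmem151a. The median log2 difference over the 3597 genes was 0.69, and Prm1 alone had 65303 CPM in those spermatids.

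Splitting the members by P gave much smaller differences. Members were divided within each library into 3 parts of nearly equal size, and 3.32% of 3405 genes were over 2-fold higher in the 319 members of the highest part than in the 325 of the lowest, with 0.0881% over 2-fold lower. The highest part had fewer UMIs, with a median of 25789 against 53467 in the lowest part. Fam71b had 84.9 CPM in the highest part and 10.4 CPM in the lowest, Hemgn 107 and 17.0 CPM, and Tuba8, a tubulin, 145 and 24.4 CPM. 1190005I06Rik, Trp53tg5, Prss37, Fam71a and Fbxo39 were the others, with log2 differences between 2.35 and 2.91 for all 8. As UMIs, Fam71b gave 2.39 per member of the highest part, 0.788 per member of the lowest part and 0.889 per macrophage barcode, and Hemgn gave 3.06, 1.27 and 0.998. The lowest part was thus near the level of macrophage barcodes. On the lower side, Hdgfl1 had 116 CPM in the highest part and 225 CPM in the lowest, and Pde6d, a carrier of prenylated proteins, 58.4 and 122 CPM. X-linked UMIs at 15000 had a median of 213 in the highest part and 184 in the lowest.

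The number of members differed widely between libraries. Smoking libraries 1 to 3 held 179, 122 and 316 members and control libraries 1 to 3 held 86, 70 and 193. As a share of barcodes that passed the mitochondrial limit this was 2.15% (exact 95% binomial interval 1.85 to 2.49), 1.39% (1.16 to 1.66) and 3.36% (3.0 to 3.74) in smoking libraries, and 1.04% (0.831 to 1.28), 0.813% (0.635 to 1.03) and 2.29% (1.98 to 2.63) in control libraries, the intervals covering counting error only. The mean was 2.30% ± 0.990 in smoking and 1.38% ± 0.796 in control libraries (SD, n = 3 each, exact permutation p = 0.3), with control library 3 above smoking libraries 1 and 2.

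The direction turned with the denominator. Of barcodes with at least 15000 UMIs, members were 20.6%, 14.0% and 20.4% in smoking libraries 1 to 3 and 21.4%, 22.7% and 21.8% in control libraries 1 to 3. All smoking libraries were lower, with means of 18.4% ± 3.76 and 22.0% ± 0.643 (exact permutation p = 0.1, the smallest possible). The barcodes with at least 15000 UMIs were themselves 12.3% ± 3.62 of passing barcodes in smoking libraries and 6.32% ± 3.68 in control libraries (exact permutation p = 0.3). The UMI limit sets these shares, and they do not count the round spermatids of the testis.

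**Figure D4:**
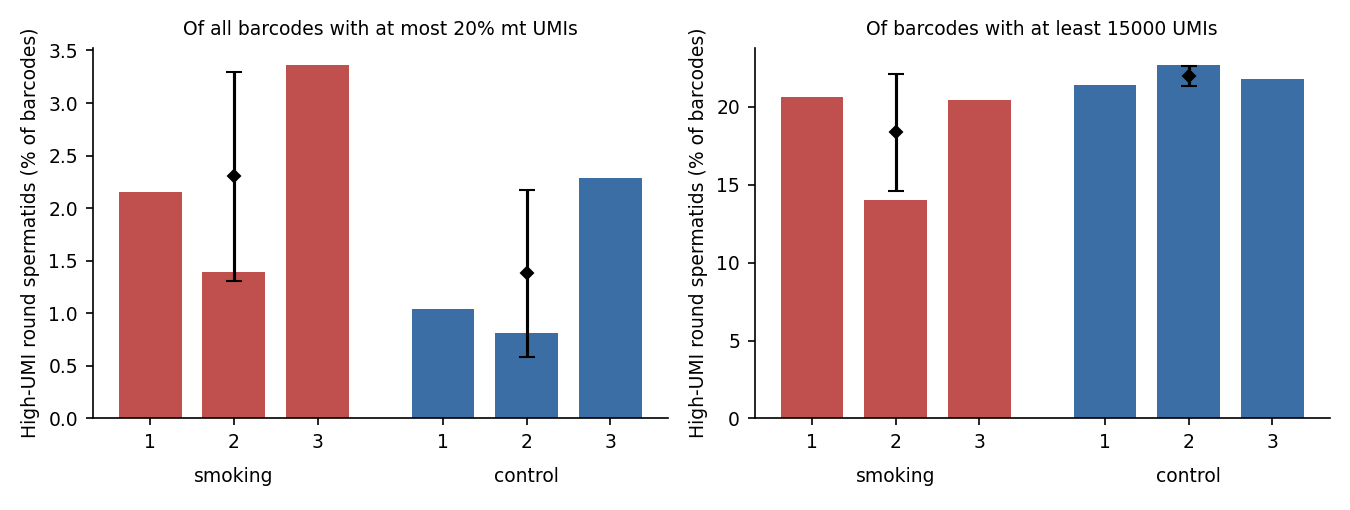
High-UMI round spermatids as a percentage of all barcodes with at most 20% mitochondrial UMIs (left) and of the barcodes that also held at least 15000 UMIs (right), with a bar per library, smoking in red and control in blue, and the mean ± SD of each group as a black diamond. Smoking libraries averaged 2.30% and control libraries 1.38% on the left, and 18.4% and 22.0% on the right.

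Few genes were called between members of smoking and control libraries. With UMIs summed over members per library and edgeR's quasi-likelihood test (Benjamini-Hochberg adjusted p under 0.05), 3 of 11847 genes were called (0.0253%), of which 2 were higher (0.0169%) and 1 was lower (0.00844%) in smoking members. At an unadjusted p under 0.05 there were 841 genes (7.1%). The groups did not overlap for 12.3% of genes, 5.5% with smoking higher and 6.83% with smoking lower. A positive log2 fold was found for 49.7% of genes, and the median over all was -0.00124. On the same sums DESeq2 called 21 genes and limma-voom 1.

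Gm13307, annotated as an antisense gene (chromosome 4, 41893278 to 41942092, minus strand, GRCm38), was the lower one. It had 114, 119 and 113 CPM in smoking libraries 1 to 3 and 194, 181 and 170 CPM in control libraries 1 to 3. The groups lay well apart, with a log2 fold of -0.64 (SE 0.06, edgeR adjusted p = 0.0044). In the neighbouring classes it lay at 53.9 to 59.1 CPM against 78.2 to 108 CPM in spermatids with P of at least 3 and at 55.0 to 64.5 CPM against 80.7 to 110.4 CPM in late spermatocyte barcodes. In all other barcodes together it had 62.6 to 67.3 CPM in smoking and 92.6 to 114 CPM in control libraries. None of these passed the test (edgeR adjusted p = 0.233, 0.999 and 0.265), and the effect in members did not differ detectably from that in spermatids with P of at least 3 (difference of log2 folds 0.08, SE 0.13, limma adjusted p = 0.969). Gm21541 and Gm20878 overlap it on the other strand, and whether reads of the 3 genes were fully told apart was not tested.

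Npm1, nucleophosmin, a nucleolar chaperone of ribosome assembly and histones (chromosome 11, 33152287 to 33163206), was higher. It had 492, 429 and 425 CPM in smoking libraries 1 to 3 and 335, 306 and 324 CPM in control libraries 1 to 3. The groups did not overlap, with a log2 fold of 0.49 (SE 0.06, edgeR adjusted p = 0.0416). In late spermatocyte barcodes it had 622 to 726 CPM in smoking and 530 to 558 CPM in control libraries, a log2 fold of 0.31 that did not pass (edgeR adjusted p = 0.999). In spermatids with P of at least 3 the groups overlapped, with 92.2 to 111 CPM in smoking and 62.2 to 95.7 CPM in control libraries. The log2 fold there was 0.40 (edgeR adjusted p = 0.507), and the effect in members differed from it by 0.09 (SE 0.22, limma adjusted p = 0.985). In all other barcodes the groups also overlapped, with 232 to 306 CPM in smoking and 226 to 290 CPM in control libraries. The effect in members differed from that in late spermatocyte barcodes by 0.25 (SE 0.11, limma adjusted p = 0.884). The call was lost in 8 of 17 alternatives, among them those with control libraries 1, 2 or 3 or smoking library 2 left out, with edgeR or limma-voom adjusted p-values of 0.0654 to 0.292.

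1700071G01Rik, an antisense gene within Fryl (chromosome 5, 73157014 to 73157884), was the other higher one. It had 32.0, 29.7 and 35.5 CPM in smoking libraries 1 to 3 and 11.1, 16.8 and 16.5 CPM in control libraries 1 to 3, which is 1.30 UMIs per member. The log2 fold was 1.13 (SE 0.15, edgeR adjusted p = 0.0416), and the call was lost in 11 of 17 alternatives, among them each of the 6 with a library left out, with edgeR or limma-voom adjusted p-values of 0.0502 to 0.292. In all other barcodes it had 11.6 to 15.9 CPM in smoking and 6.18 to 11.5 CPM in control libraries.

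**Figure D5:**
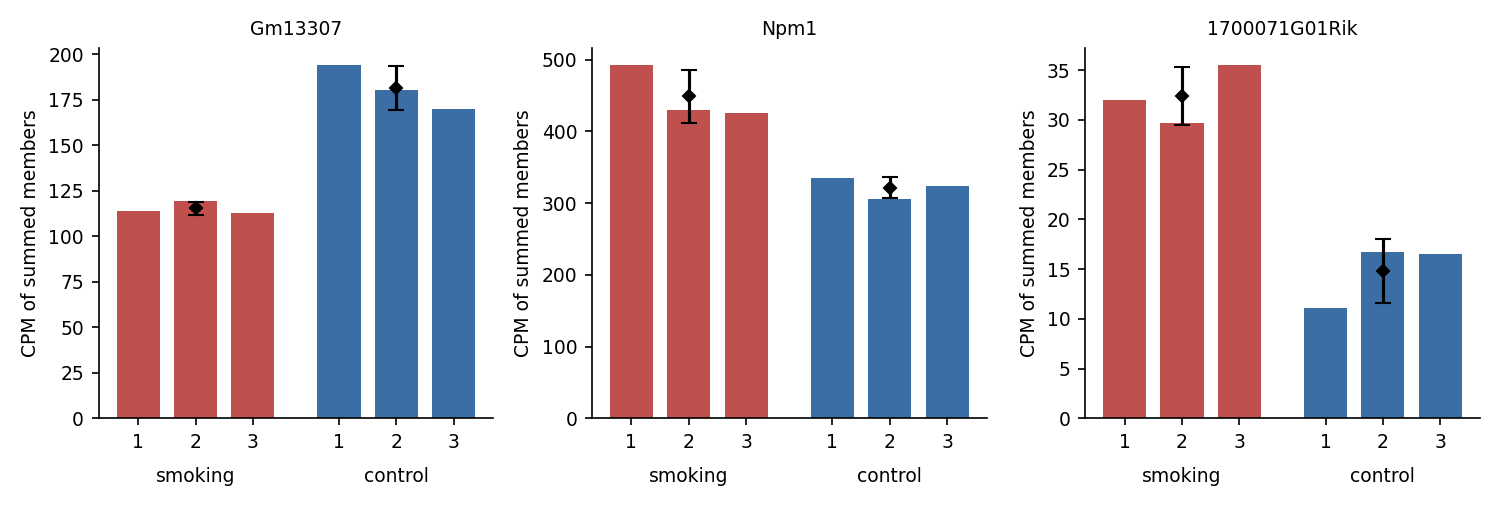
CPM of Gm13307, Npm1 and 1700071G01Rik in the summed members of each library, smoking in red and control in blue, with the mean ± SD of each group as a black diamond. Gm13307 averaged 115 CPM in smoking and 181 CPM in control libraries, Npm1 449 and 322 CPM, and 1700071G01Rik 32.4 and 14.8 CPM.

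With genes averaging under 10 CPM left aside, the next smallest p-values in each direction did not pass edgeR's test, although DESeq2 called all of the genes named here except Gm13306. On the higher side, Dapl1 had 119, 119.6 and 109 CPM in smoking libraries 1 to 3 and 82.5, 91.7 and 88.5 CPM in control libraries 1 to 3, a log2 fold of 0.42 (SE 0.07, edgeR adjusted p = 0.217). Its promoter is the one printed above with a single core. Clec4a2, a C-type lectin receptor known from immune cells, averaged 180.3 ± 5.69 CPM in smoking and 142 ± 13.7 CPM in control members (edgeR adjusted p = 0.258), and had 8.04 UMIs per member against 0.761 per macrophage barcode. 1700018F24Rik averaged 271 ± 15.0 CPM in smoking and 220.4 ± 15.5 CPM in control members (edgeR adjusted p = 0.375).

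On the lower side, H1fnt, the testis linker histone H1T2, had 432, 436 and 435 CPM in smoking libraries 1 to 3 and 518, 506 and 488 CPM in control libraries 1 to 3, a log2 fold of -0.20 (SE 0.04, edgeR adjusted p = 0.264). H2afb1, a short histone H2A variant, averaged 116 ± 5.02 CPM in smoking and 154 ± 15.8 CPM in control members (edgeR adjusted p = 0.258). H2afb1 gave 6.16 UMIs per member and 5.56 per macrophage barcode, and H1fnt 22.1 and 6.50, so no expression is read from the level of H2afb1. In all other barcodes the order of the groups was the opposite, with H1fnt at 1026 to 1128 CPM against 844 to 1022 CPM and H2afb1 at 1033 to 1094 CPM against 824 to 1017 CPM in smoking and control libraries (edgeR adjusted p = 0.266 and 0.265). Gm13306, near Gm13307 on chromosome 4, averaged 262 ± 18.2 CPM in smoking and 401 ± 85.4 CPM in control members (edgeR adjusted p = 0.264), and Als2cr12, a sperm flagellum gene, 165 ± 6.84 and 208 ± 17.9 CPM (edgeR adjusted p = 0.311).

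Genes of spermatid functions were described by list, with calls by edgeR; over all genes a positive log2 fold was found for 49.7%. At an unadjusted p under 0.05, which 7.1% of all genes reached, there were 2 acrosome genes, 0 channel genes, 1 kinase, 5 flagellar genes and 2 genes of the manchette and intraflagellar transport, and DESeq2 and limma-voom called 0 in each of these lists. Of 34 tested acrosome genes 0 were called, 21 had a positive log2 fold, and the median was 0.02 beside -0.00124 over all genes; the groups did not overlap for 4, with smoking higher in 3, beside 12.3% of all genes. Zpbp, a zona pellucida-binding protein of the acrosome, averaged 476 ± 10.5 CPM in smoking and 444 ± 13.6 CPM in control members (edgeR adjusted p = 0.659). Of 15 tested genes of the CatSper channel and other sperm ion channels 0 were called (median 0.03), and Catsperz, an auxiliary subunit, averaged 1197 ± 23.7 and 1186 ± 34.0 CPM in smoking and control members. Of 15 spermatid kinases 0 were called (median -0.00467), with Tssk2 at 994 ± 41.6 CPM in smoking and 975 ± 18.2 CPM in control members. Of 43 flagellar genes 0 were called (median 0.02), 25 had a positive log2 fold, and Odf2, of the outer dense fibres, averaged 2192 ± 22.4 and 2185 ± 25.0 CPM. Of 26 genes of the manchette and intraflagellar transport 0 were called (median -0.03), and the groups did not overlap for 4 (beside 12.3% of all genes), each with a negative log2 fold. Ift172, of the intraflagellar transport complex, was at 134 ± 2.01 CPM in smoking and 152 ± 2.31 CPM in control members (edgeR adjusted p = 0.657).

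At an unadjusted p under 0.05, which 7.1% of all genes reached, there were 1 of 19 transcription regulators, 1 of 25 RNA storage genes, 5 of 22 chromatin genes and 26 of 345 X-linked genes. DESeq2 called 2 of the chromatin genes, H1fnt and H2afb1, and 0 in the other lists, and limma-voom called 0. Of 19 transcription regulators of spermatids 0 were called, and 15 had a positive log2 fold (median 0.04), beside 49.7% of all genes. Together they summed to 3950 to 3994 CPM in smoking and 3791 to 3892 CPM in control members, without overlap. In spermatids with P of at least 3 the order was the opposite, with 3400 to 3483 CPM in smoking and 3485 to 3737 CPM in control libraries. Crem, the activator of many haploid genes, averaged 564 ± 13.7 CPM in smoking and 538 ± 26.7 CPM in control members, with overlapping groups, and Kctd19, a meiotic regulator, 109 ± 3.79 and 93.5 ± 3.85 CPM, with no overlap (edgeR adjusted p = 0.657). Of 25 RNA storage and piRNA genes 0 were called (median 0.00465), and Ybx2, the RNA-binding protein MSY2 that stores messages in spermatids, averaged 804 ± 13.4 CPM in smoking and 775 ± 9.51 CPM in control members. Of 22 chromatin genes 0 were called (median 0.00490). Of 345 X-linked genes tested 0 were called, 209 had a positive log2 fold, and the median was 0.05.

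In the energy and protein turnover lists an unadjusted p under 0.05 was found for 1 of 24 glycolysis genes, 2 of 73 genes of oxidative phosphorylation, 1 of 47 proteasome and ubiquitin genes and 13 of 82 ribosomal protein genes (7.1% of all genes), of which DESeq2 called 1, Rpl7a. Of 24 glycolysis genes, which spermatids express partly as sperm isoforms, 0 were called (median 0.03), and of 73 nuclear genes of oxidative phosphorylation 0 were called (median 0.02). Of 47 proteasome and ubiquitin genes 0 were called, and 36 had a positive log2 fold (median 0.04). Ubb, polyubiquitin B, averaged 2636 ± 117 CPM in smoking and 2071 ± 815 CPM in control members, with control library 1 lowest at 1136 CPM and overlapping groups. Of 82 ribosomal protein genes 0 were called (median 0.02), and Rps20 averaged 2008 ± 60.1 CPM in smoking and 1895 ± 35.5 CPM in control members without overlap (edgeR adjusted p = 0.657). Of 12 nucleolar genes 1, Npm1, was called, beside 0.0253% of all genes, and DESeq2 called 1 and limma-voom 0. An unadjusted p under 0.05 was found for 3 of the 12, beside 7.1% of all genes. A positive log2 fold was found for 4, beside 49.7% of all genes (median -0.15). The 15 listed nucleolar genes, Npm1 included, summed to 2472 to 2565 CPM in smoking and 2355 to 2428 CPM in control members, without overlap.

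Of 25 genes known to respond to xenobiotics and oxidants, 11 were too low to be tested. Cyp1a1, the classical target of the aryl hydrocarbon receptor, had a UMI in 0 of 966 members at 15000 UMIs, which allows a share of members with a UMI of up to 0.311% and sets no limit on members that express it. Nqo1, a quinone reductase, was seen in 0.518% of members at 15000 UMIs, Hmox1, heme oxygenase, in 0.207% and Gclc, of glutathione synthesis, in 1.45%, beside 0.493%, 45.3% and 6.65% of macrophage barcodes. Of the other 14 genes edgeR called 0, 1 had an unadjusted p under 0.05 (beside 7.1% of all genes), and the median log2 fold was -0.04. Keap1, the sensor that holds NRF2 in check, averaged 31.7 ± 2.99 CPM in smoking and 41.3 ± 6.96 CPM in control members without overlap (edgeR adjusted p = 0.657), and Mt1, a metallothionein, 1885 ± 32.4 and 1820 ± 31.6 CPM (edgeR adjusted p = 0.737). Of 18 antioxidant genes, 30 chaperone and unfolded protein genes and 15 DNA damage genes 0 were called in each by edgeR, DESeq2 and limma-voom. An unadjusted p under 0.05 was found for 0, 4 and 0 of them, beside 7.1% of all genes. Their median log2 folds were 0.02, -0.04 and 0.00813. Hspb9, a testis heat shock protein, averaged 1855 ± 59.5 CPM in smoking and 1751 ± 36.5 CPM in control members without overlap (edgeR adjusted p = 0.657), and Mdm2, the p53 ligase, 204 ± 1.02 and 196 ± 3.61 CPM.

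The smoking effect of no gene differed detectably between the members and their neighbours. By limma on within-library log2 differences, 0 of 11251 genes passed against spermatids with P of at least 3 (0.0%; 613 at an unadjusted p under 0.05, 5.45%) and 0 of 12530 against late spermatocyte barcodes (0.0%; 718 at an unadjusted p under 0.05, 5.73%). Within the neighbours, edgeR called 0 of 8717 genes in spermatids with P of at least 3 (674 at an unadjusted p under 0.05) and 0 of 10527 in late spermatocyte barcodes (374). The neighbours held 43 to 86 and 40 to 101 barcodes per library, and a miss there does not show that their effects were alike.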

How the data were processed

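Raw UMI counts per gene and barcode were deposited for 6 libraries, numbered here within each group in deposit order. Cells came from the left testis after dead-cell removal, with 10x 3′ chemistry, per the labels' protocols. Cell Ranger made the counts, in version 3.1.0 per the file headers and 7.1.0 per the submitters' processing notes, which also name CASAVA 1.8 and mm10. Counts of near-identical copies, predicted genes and antisense genes are uncertain.

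Members, neighbouring classes and macrophage barcodes (C1qa, C1qb and C1qc of at least 5 UMIs) were set by UMI sums. The members and lists were chosen with earlier results of these data known. Member counts were summed per library and tested over genes with edgeR 4.0.16 (quasi-likelihood, TMM, filterByExpr) in R 4.3.3, tested on simulated data. Differences of effects used limma 3.58.1 (prior count 1), library values exact two-sided permutation tests over 20 assignments. Stage differences are means of within-library log2 (CPM + 1) differences. Genes detected, X-linked and Y-linked UMIs per member were counted after thinning to 15000 UMIs. Doublets were scored against simulated pairs and kept, with an alternative without them. Named genes are the selection genes, called genes, the smallest 5 p-values per direction with at least 10 CPM, the 15 most abundant, the 8 highest and lowest per stage difference, the 5 X-linked and 3 Y-linked genes of highest level, the smoke response genes Cyp1a1, Nqo1, Hmox1, Gclc and Npm1, and per list the called genes or else the 2 of highest level and that of smallest p. Genes come from GENCODE M21 (GRCm38), which matched 30843 of 30905. Alternatives were DESeq2 1.42.0, limma-voom, other filters, thinned sums, other limits, members on either side of the median of P, and each library left out.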

Additional observations from a re-analysis of the deposited data

How the results depend on the processing

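The count of 3 called genes depended on the settings. It was 21 with DESeq2, 1 with limma-voom, 283 with no filter beyond 1 UMI, 1 with a mean of at least 10 CPM, 7 without barcodes of high doublet score, and 0 and 1 in members below and above the median of P, where fewer cells were summed. It was 2 to 4 under the other limits and thinned sums, and 2 to 9 with a library left out: 7 without control library 3, 5 without smoking library 1 and 9 without smoking library 3. For these counts the cause was not tested. Gm13307 kept its direction in all 17 alternatives and lost its call in 1, in members below the median of P (adjusted p = 0.0512). Npm1 and 1700071G01Rik kept their direction in all 17. The share of members was higher in smoking libraries in all 10 alternatives with the same denominator (by 0.393 to 1.38 percentage points) and lower by 3.58 points, a difference of -3.58, as a share of barcodes with at least 15000 UMIs. The X share stayed higher in smoking members (by 0.00232 to 0.0494 points). The Y share turned to 0.000294 points higher without control library 3, and ranged from -0.00472 to 0.000294 with a library left out. This share counts Gm47283, which was uneven among control libraries. Genes detected turned to a difference of 1.83 with at least 20000 UMIs and 3.5 below 60000 UMIs (an alternative added after the data were seen), and ranged from -6.33 to 1.92 with a library left out. Differences of effects gave 0 genes in all 11 alternatives of each comparison. No paired analysis was possible because the labels give the groups no shared replicate numbers. Depth limits genes under about 1 UMI per member.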
